A study of Mus musculus with 4 samples.

Results

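The 7 genes Fabp6, Slc10a2, Osta, Ostb, Nr1h4, Nr0b2 and Fgf15, which serve the uptake and sensing of bile acids in the intestine, were examined among 20804 genes named on the deposited exons. They were chosen by symbol (Osta and Ostb are now called Slc51a and Slc51b), and all 7 could be found in the mouse genome assembly mm9. The study compared the transcriptomes of small intestine and colon of C57BL/6 mice aged 9 to 10 weeks, for which the methods name total tissue of jejunum and of distal colon and 6 mice over the whole study. For each tissue, a library named cDNA fragmented here was made from polyadenylated RNA by SMART cDNA synthesis from an oligo-dT primer, and a library named rRNA depleted here was made from RNA labelled as depleted of ribosomal RNA with a whole transcriptome kit that keeps the strand. With 1 library per tissue and protocol there was no replicate error within a protocol, and the 95% intervals below cover counting error only.

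Bile acids are made in the liver, released into the gut and largely taken back up in the ileum, the distal part of the small intestine. Slc10a2 carries them from the lumen into the enterocyte, Fabp6 binds them in the cytosol, and Osta and Ostb form together the transporter through which they leave towards the blood. Inside the cell they are bound by the nuclear receptor Nr1h4 (FXR), whose classical targets include Nr0b2, a repressor also called SHP, and Fgf15, a hormone that acts on the liver.

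The uniquely placed reads numbered 22484041 in small intestine and 24798934 in colon for the cDNA fragmented protocol, and 2035386 and 3478387 for the rRNA depleted protocol, so that low genes were measured less precisely in the latter. Levels are given as RPKM, the reads per kilobase of counted exon and per 1000000 uniquely placed reads. The labelled tissues could be recognised, as all 6 enterocyte markers (among them Alpi and Lct) were at least 3-fold higher in small intestine and all 4 colonocyte markers (among them Car1 and Aqp8) at least 3-fold higher in colon in both protocols. The libraries differed in other ways as well. The 4 Y-linked genes Ddx3y, Eif2s3y, Kdm5d and Uty summed to 19 reads in the cDNA fragmented small intestine library, against 3433, 360 and 785 reads in the cDNA fragmented colon and the rRNA depleted small intestine and colon libraries, while Xist had 1751, 31, 9 and 5 reads in the same order. The summed RPKM of 4 pancreatic acinar markers was 18.4, 709, 1925 and 293 in that order, with 2 of the 4 at 0 reads in the first library. Cela1 alone had 18.3, 544, 496 and 291 RPKM of these sums. In the rRNA depleted colon library Cpa1, Pnlip and Ctrb1 had 2, 3 and 5 reads. The summed RPKM of 4 smooth muscle markers was 208, 851, 177 and 1402. Of the 4 liver markers, Alb had 2, 17, 0 and 3 reads and Ttr had 100, 1786, 4 and 62 reads. Apoh, with 24, 9, 0 and 0 reads, and Serpina1b, with 36, 6, 2 and 0, had more in small intestine in the cDNA fragmented libraries. Of 4 immune cell markers, Ptprc and Cd3e were at least 3-fold higher in small intestine in the cDNA fragmented libraries, and 0 of 4 were so in the rRNA depleted ones. The part of sex, of these other tissues or of the mice in the differences below was not tested, and in whole tissue fewer cells of a type and less RNA per cell cannot be told apart.

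Within the pathway, the genes of binding and export were higher in small intestine. The uptake transporter and the receptor had more reads per length in colon in both protocols, by less than 3-fold and without passing the threshold of the fit over both protocols given further on. In the cDNA fragmented libraries 4 of the 7 genes (Fabp6, Osta, Ostb and Fgf15) were at least 3-fold higher in small intestine when 1 RPKM was added to the divisor, against 2.62% of 17170 genes with a read, and 0 of 7 were so in colon, against 3.07%. In the rRNA depleted libraries 2 of the 7 (Fabp6 and Osta) were at least 3-fold higher in small intestine, against 3.59% of 16141 genes, and again 0 of 7 in colon, against 6.24%. The count in small intestine became 3 of 7 in that protocol with Ostb when the reads were scaled by TMM, median of ratios or epithelial markers, and 3 of 7 with Nr0b2 when start points or a penalty of 0.1 RPKM were used. With start points in place of reads, the count in the cDNA fragmented libraries fell from 4 of 7 to 1 of 7, Fgf15, and Fabp6, Osta and Ostb were below 3-fold. Start points are bounded by gene length, at 1 per base and strand. Osta and Ostb had 1595 and 464 of them in colon on 1544 and 397 bases, so neither could reach 3-fold by this measure. The median log2 difference of small intestine and colon, on the log2(RPKM + 0.1) scale, was 1.94 for the 7 genes and -0.34 for all genes in the cDNA fragmented protocol. In the rRNA depleted protocol it was 1.77 against -0.42, or 1.25 when the only gene with a computable bound for 0 colon reads was set to that bound and Fgf15 was left out. The genes had been chosen with earlier results of these data known, so these shares describe them and do not test the pathway.

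**Figure D1:**
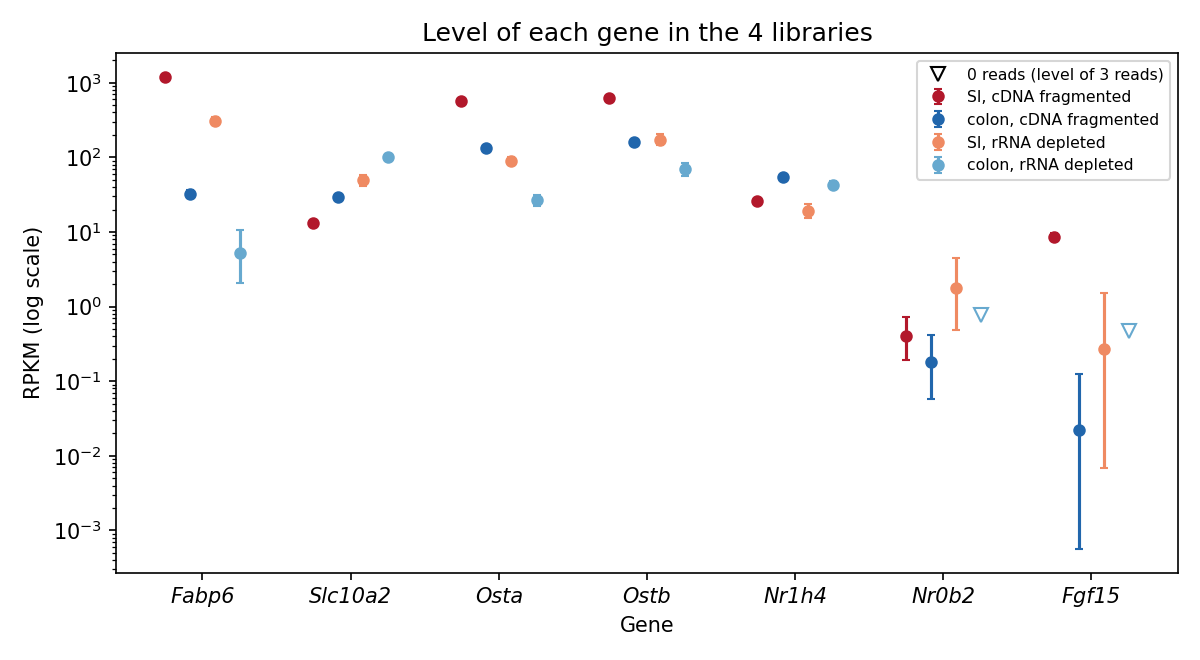
Level of the 7 genes in the 4 libraries, as RPKM on a log axis. Points are single libraries, bars are exact Poisson 95% intervals of the read count, and open triangles mark the level of 3 reads where 0 reads were found. Fabp6 runs from 1185 RPKM in the cDNA fragmented small intestine library to 5.20 RPKM in the rRNA depleted colon library, while Slc10a2 and Nr1h4 lie higher in colon than in small intestine in both protocols.

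Fabp6, the ileal bile acid binding protein, showed the largest difference among those of the 7 genes that could be compared in both protocols. It is encoded on the minus strand of chromosome 11 at 43409614 to 43415013 in mm9, with 4 exon blocks of 387 bases in total. Its level was 1185 RPKM in small intestine and 32.4 RPKM in colon of the cDNA fragmented libraries, from 10312 and 311 reads, and 311 RPKM and 5.20 RPKM in the rRNA depleted ones, from 245 and 7 reads. Both small intestine libraries were above both colon libraries. The level was thus 36.6-fold higher in small intestine in the first protocol (interval 32.7 to 41.1) and 59.8-fold higher in the second (28.6 to 150.3). By RPKM Fabp6 ranked 76th among all 20804 genes in the cDNA fragmented small intestine library and 156th in the rRNA depleted one, and 2289th and 8427th in the colon libraries. Reads were found on every exon block in the cDNA fragmented libraries, and the ratio between tissues ran from 32.3 to 51.5 over the 4 blocks.

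Most of the small intestinal reads of Fabp6 fell on its second exon block, a wholly coding exon. It holds 64.8% of the reads of the cDNA fragmented library on 45.5% of the counted length, and 142 of 245 reads of the rRNA depleted one. A read has to fit on its block, so the shorter blocks, of 67, 90 and 54 bases, offer fewer positions per base. Block 2 is printed from the minus strand of mm9, chr11:43412072-43412247, to show where the reads lie. The capitals mark the 35 bases of the start point that, among those placed wholly on this block, had the most reads in the cDNA fragmented small intestine library, 63 in number. These reads lay on the plus strand and start at the border of the block, where starts up to 3 bases outside it were counted with them.
Fabp6 exon block 2: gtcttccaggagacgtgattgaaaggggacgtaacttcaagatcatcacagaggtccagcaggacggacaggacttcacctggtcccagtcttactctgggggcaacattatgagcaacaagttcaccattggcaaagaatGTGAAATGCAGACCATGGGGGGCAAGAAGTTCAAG
The largest start point of the whole gene, on another block, took 0.68% of the gene's reads, so no single position made up the level. The 10312 reads lay on 528 start points, or 19.5 reads per start point, against 1.47 in the colon library. Start points are limited to 1 per base and strand of the 387 bases counted, and to fewer than that because a read has to fit on its block. By them the ratio was 2.61 (2.22 to 3.07) in the cDNA fragmented libraries and 20.5 (9.54 to 52.6) in the rRNA depleted ones.

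The export transporter followed the same direction with a smaller difference. Osta, its multipass subunit, lies on the minus strand of chromosome 16 at 32475664 to 32487965 (9 exon blocks, 1544 bases). Its level reached 562 RPKM in small intestine against 135 RPKM in colon of the cDNA fragmented libraries, and 90.4 and 26.4 RPKM in the rRNA depleted ones. The small intestine was 4.18-fold higher in the first protocol (4.05 to 4.31) and 3.42-fold in the second (2.78 to 4.21). In the cDNA fragmented libraries each of the 9 blocks was higher in small intestine, with ratios from 3.10 to 5.15. The share of Osta reads within the last 500 exonic bases was 42.3% in both cDNA fragmented libraries.

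Ostb, the smaller accessory subunit, lies on the minus strand of chromosome 9 at 65260560 to 65270580, with 3 counted blocks of 397 bases. A further 91 of its 384 coding bases lie in an exon block that is merged with the neighbouring gene Rasl12 and were not counted. Its level was 616 RPKM in small intestine and 160 RPKM in colon of the cDNA fragmented libraries, and 173 and 69.5 RPKM in the rRNA depleted ones. Small intestine was higher in both protocols, 3.85-fold (3.64 to 4.08) and 2.49-fold (1.91 to 3.27), and the intervals of the 2 protocols did not overlap. By start points, which length bounds as said above, the ratios of Osta and Ostb in the cDNA fragmented libraries were 1.32 (1.23 to 1.41) and 1.30 (1.15 to 1.47). In the rRNA depleted libraries they were 3.14 (2.31 to 4.30) and 2.61 (1.71 to 4.04). Set against each other per length, Osta had 0.91 times the level of Ostb in the cDNA fragmented small intestine library (0.89 to 0.94) and 0.84 times in colon (0.80 to 0.89). The quotient was 0.52 (0.42 to 0.64) in small intestine and 0.38 (0.29 to 0.50) in colon of the rRNA depleted libraries.

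The promoters of Fabp6, Osta and Ostb are shown because these genes differed in the same direction, and because an inverted repeat of the half-site AGGTCA with a spacer of 1 base is the classical binding element of FXR with its partner Rxra. The 300 bases around the start site (250 before, 50 after) were searched in RefSeq's promoters of GRCm38.p6 for AGGTCANTGACCT, which reads the same on both strands, and 6 of the 7 genes were matched in that table. Capitals mark the best match, with 15 bases on either side.
Fabp6, chr11:43601757-43601799, minus strand: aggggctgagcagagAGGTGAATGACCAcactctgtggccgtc
Osta, chr16:32487931-32487973, minus strand: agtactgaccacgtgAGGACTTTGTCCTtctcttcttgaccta
Ostb, chr9:65422933-65422975, minus strand: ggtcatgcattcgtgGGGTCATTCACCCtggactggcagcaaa
The Fabp6 window matched 10 of the 12 fixed bases, starting 222 bases before the start site, and 1.14% of 32851 promoters held a match at least as good. The Osta window (79 bases before) and the Ostb window (187 bases before) matched 9 of 12, and 11.4% of all promoters matched at least as many. The best matches of Slc10a2, Nr1h4 and Nr0b2 had 8 of 12 bases, a number reached by 56.4% of all promoters. Fgf15 had no promoter there and was not searched, and bases more than 250 before the start site were not searched for any gene. A poor best match therefore does not show that a gene lacks such an element. These are matches of letters, and binding was not measured.

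Slc10a2, the apical sodium-dependent bile acid transporter, was higher in colon in both protocols. It lies on the minus strand of chromosome 8 at 5085623 to 5105232 (6 exon blocks, 1629 bases). Its level was 13.3 RPKM in small intestine and 29.0 RPKM in colon of the cDNA fragmented libraries, from 486 and 1173 reads. The rRNA depleted libraries gave 49.2 and 102 RPKM, from 163 and 576 reads. The colon was higher 2.19-fold (1.97 to 2.44) in the first protocol and 2.07-fold (1.73 to 2.48) in the second. Unlike Fabp6, Osta and Ostb, the gene had a larger share of the reads in the rRNA depleted library of each tissue, 3.70-fold in small intestine (3.08 to 4.43) and 3.50-fold in colon (3.16 to 3.87).

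The colon excess of Slc10a2 differed over its length in the cDNA fragmented libraries. On blocks 1 to 5, grouped after their values were seen, 379 reads of small intestine and 1042 of colon were found in the cDNA fragmented libraries, and colon was 2.49-fold higher (2.21 to 2.81). On block 6, the last one, which holds 125 coding bases of 661, they had 107 and 131 reads, a quotient of 1.11 (0.85 to 1.45). With the last 500 exonic bases alone, 60 and 56 reads were found and the direction turned, with a ratio of small intestine to colon of 1.18 (0.81 to 1.73). The rRNA depleted libraries had 115 and 393 reads on blocks 1 to 5, a ratio of small intestine to colon of 0.50 (0.40 to 0.62), and 48 and 183 reads on block 6, a ratio of 0.45 (0.32 to 0.62), so that the intervals of both parts overlapped there. The wholly coding block 5, printed from the minus strand of mm9, chr8:5089024-5089181, held 21.5% of the reads of the cDNA fragmented colon library on 9.7% of the length, and its capitals mark the 35 bases of the start point with the most reads on this block, 6 in number.
Slc10a2 exon block 5: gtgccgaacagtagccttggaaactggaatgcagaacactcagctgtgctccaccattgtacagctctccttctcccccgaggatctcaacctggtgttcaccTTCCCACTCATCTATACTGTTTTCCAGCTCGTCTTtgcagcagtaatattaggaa
On this exon the colon was 2.38-fold higher (1.87 to 3.04) in the cDNA fragmented libraries and 3.98-fold higher (2.04 to 8.67) in the rRNA depleted ones.

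The uptake transporter and the cytosolic binding protein therefore differed in their balance between tissues. Per length, Fabp6 was at 89.3 times the level of Slc10a2 in the cDNA fragmented small intestine library (81.5 to 98.0) and at 1.12 times in colon (0.98 to 1.27). The rRNA depleted libraries gave 6.33 (5.17 to 7.76) in small intestine and 0.051 (0.020 to 0.106) in colon.

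**Figure D2:**
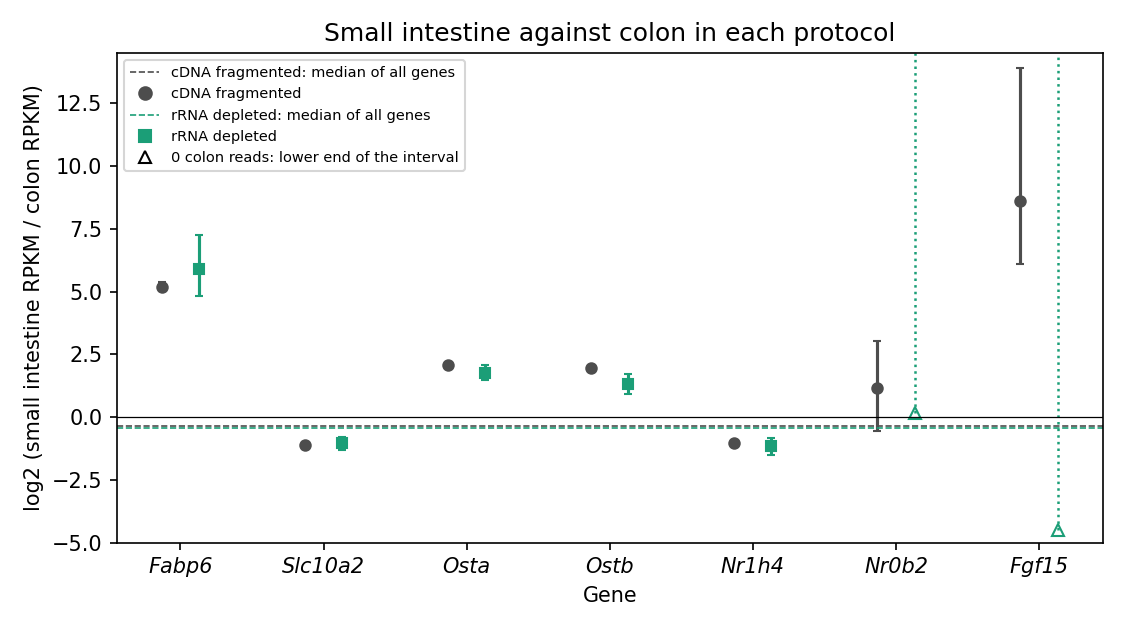
Log2 ratio of small intestine to colon RPKM for the 7 genes in each protocol, with exact 95% intervals for counting error. Dashed lines give the median of all genes on the log2(RPKM + 0.1) scale, and open triangles give the lower end of the interval where colon had 0 reads. Fabp6, Osta and Ostb lie above 0, and Slc10a2 and Nr1h4 below the median of all genes, in both protocols.

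Nr1h4, the bile acid receptor FXR, was also higher in colon. It lies on the minus strand of chromosome 10 at 88916981 to 88996367 (11 exon blocks, 2338 bases). Its level was 26.3 RPKM in small intestine and 54.4 RPKM in colon of the cDNA fragmented libraries, and 19.3 and 43.0 RPKM in the rRNA depleted ones. Both colon libraries were above both small intestine libraries, 2.07-fold (1.94 to 2.21) in the first protocol and 2.23-fold (1.76 to 2.83) in the second. In the cDNA fragmented libraries 10 of its 11 blocks had a larger share of the reads in colon. The exception was the untranslated block 1, with 27 and 28 reads. In the rRNA depleted libraries blocks 1 to 3, grouped after their values were seen, had 20 reads in small intestine against 21 in colon, and blocks 4 to 11 had 72 and 329, a ratio of small intestine to colon of 1.63 (0.84 to 3.16) and 0.37 (0.29 to 0.48). The same groups had ratios of 0.59 (0.45 to 0.78) and 0.48 (0.45 to 0.51) in the cDNA fragmented libraries.

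**Figure D3:**
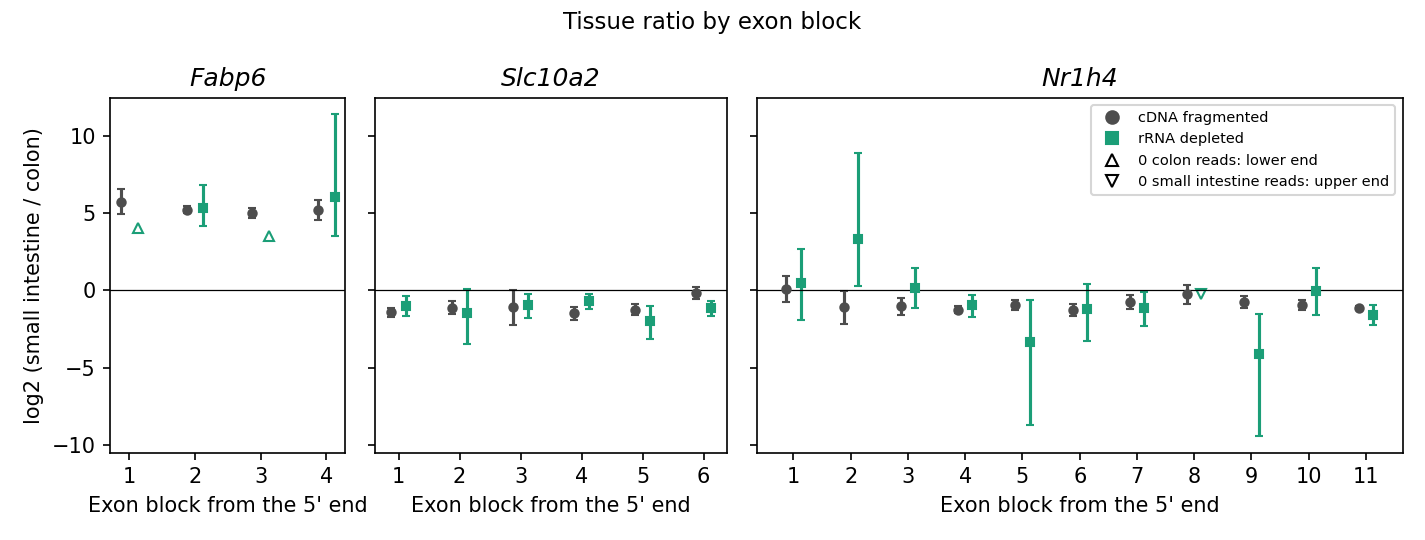
Log2 ratio of small intestine to colon for each exon block of Fabp6, Slc10a2 and Nr1h4, counted from the 5' end, in each protocol. Bars are exact 95% intervals for counting error, and open triangles give the finite end of the interval where a library had 0 reads. All blocks of Fabp6 lie above 0, the last block of Slc10a2 lies close to 0 in the cDNA fragmented protocol only, and the first 3 blocks of Nr1h4 lie at or above 0 in the rRNA depleted protocol.

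Of the classical targets of the receptor that were named above, which are not all of its targets, Fgf15 was higher in small intestine in the cDNA fragmented libraries. Nr0b2 had few reads in every library. Fgf15, the enterokine that signals to the liver, lies on the plus strand of chromosome 7 at 152082437 to 152086856 (3 exon blocks, 1807 bases). It had 351 reads in small intestine and 1 read in colon of the cDNA fragmented libraries, 8.64 RPKM (7.76 to 9.59) and 0.022 RPKM (0.00056 to 0.12). The ratio between the tissues was 387 with an interval of 69.0 to 15334. The 351 reads were spread over 319 start points and all 3 blocks. As 478 of its bases are shared with Gm17685, a noncoding gene on the opposite strand, and this protocol does not keep the strand, the 282 reads on the remaining bases are those of Fgf15 alone.

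In the rRNA depleted libraries Fgf15 had 1 read in small intestine and 0 in colon, too few for a comparison. At the share of the cDNA fragmented library, 31.8 reads would have fallen on it in small intestine, so the small intestine libraries differed 31.8-fold (5.67 to 1259). They also differed in Xist, Y-linked and acinar reads, as given above, so protocol and mouse cannot be told apart here. A count of 0 allows up to 3 reads, or 0.48 RPKM, in the colon library. Nr0b2 (chromosome 4, plus strand, 133109305 to 133112451, 2 blocks, 1118 bases) had 10 and 5 reads in small intestine and colon of the cDNA fragmented libraries and 4 and 0 in the rRNA depleted ones, which is 0.40, 0.18, 1.76 and 0 RPKM. The first ratio was 2.21 with an interval of 0.69 to 8.23 that includes 1, and for the second the interval begins at 1.13. With at most 1 color mismatch per read the first ratio became 8.77 (1.18 to 389), so the comparison of Nr0b2 in the cDNA fragmented libraries depends on which reads are counted.

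The strand of the reads followed the protocol. All reads of the 7 genes in the rRNA depleted libraries lay on the annotated strand, as did 98.4% of the reads of all named genes in either library. These were 245 and 7 reads for Fabp6, 163 and 576 for Slc10a2 and 92 and 350 for Nr1h4 in small intestine and colon, and the lower ends of the Wilson intervals of the Slc10a2 libraries were 97.7% and 99.3%. In the cDNA fragmented libraries 46.7% of the Fabp6 reads in small intestine and 53.6% of the Slc10a2 reads in colon were on that strand, and the members with over 1000 reads ran from 39.8% (37.4 to 42.2) for Ostb to 57.5% (56.1 to 58.8) for Osta, both in colon, against 48.3% and 48.2% over all named genes in small intestine and colon.

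To use both protocols together, the tissue effect was fitted across all genes with limma, with protocol as a term and reads scaled by TMM, for 13861 genes that passed a filter on low counts. Of the 7 genes 5 passed, while Nr0b2 and Fgf15 did not. With Benjamini-Hochberg adjustment over all genes 3 of the 5 were higher in small intestine (5.84% of all genes were), and 0 of the 5 in colon (5.94%). Fabp6 was higher by 5.77 (SE 0.42) on the log2 scale (adjusted p = 1.2e-07, limma), Osta by 2.19 (SE 0.37, adjusted p = 0.00074, limma) and Ostb by 1.90 (SE 0.38, adjusted p = 0.0032, limma), each in 2 of 2 protocols. With start points in place of reads Ostb no longer passed, at a log2 difference of 1.16 (adjusted p = 0.057, limma). Slc10a2 differed by -0.82 (SE 0.38) and Nr1h4 by -0.83 (SE 0.38), with adjusted p = 0.21 and 0.19 in limma, so that their higher colon levels did not pass the threshold although 2 of 2 protocols showed them. Without adjustment p was 0.050 and 0.043 for them in limma, and voom weights gave adjusted p = 0.19 for either gene. The fit rests on 1 residual degree of freedom per gene, to which limma added 14.4 prior degrees of freedom from the spread of all genes. So p rests mostly on that shared spread and little on the gene's own. It covers only these 4 libraries, as the labels do not say which mice gave which library. The study describes both tissues as coming from the same individuals, but the Xist and Y-linked reads of both tissues in the cDNA fragmented protocol differ as between female and male tissue.

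The remaining genes of the pathway were taken from 5 lists. Of 7 other bile acid transporters 1 was at least 3-fold higher in small intestine and 1 in colon, in both protocols. Abcc2, an apical export pump for conjugates, had a small intestinal level of 24.9 RPKM and a colonic one of 0.36 in the cDNA fragmented libraries and 82.2 and 0.96 in the rRNA depleted ones, 69.5-fold (52.3 to 94.4) and 85.6-fold (53.9 to 145) higher in small intestine. Abcc3, a basolateral export pump, went the other way with 4.53 and 24.9 RPKM, then 17.2 and 79.0 RPKM, 5.51-fold (5.01 to 6.06) and 4.59-fold (3.92 to 5.41) higher in colon. Colon was thus the tissue with more reads for Slc10a2 and Abcc3, and small intestine that with more for Osta and Ostb. The median log2 difference of this list was 0.01 in the cDNA fragmented protocol, against -0.34 for all genes, and 0.07 for the 6 genes with a read in the rRNA depleted one, against -0.42. Both medians rest on a gene with 1 read in each tissue in either protocol. It gave the first median itself and was 1 of the 2 middle values of the second, so neither describes the level of the list well.

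Of 12 other receptors and regulators 1 was at least 3-fold higher in small intestine in the cDNA fragmented libraries and 2 in the rRNA depleted ones, with none in colon. The median log2 difference of this list was -0.10 in the former and 0.44 in the latter, so its sign turned with the protocol, against medians of -0.34 and -0.42 for all genes. Gata4, a transcription factor of the proximal gut, known as a repressor of ileal genes in jejunum, had 8.72 RPKM in small intestine against 0.059 in colon, then 35.5 and 0.42 RPKM. Nr1i2, the xenobiotic receptor PXR that also binds secondary bile acids, had 32.0 and 29.5 RPKM in the cDNA fragmented libraries but 57.2 and 11.6 in the rRNA depleted ones, where small intestine was 4.93-fold higher (3.92 to 6.23). Rxra, the partner of Nr1h4, had 7.79 and 9.97 RPKM in the first protocol and 60.7 and 43.4 in the second, so that its direction turned with the protocol. Gpbar1, the membrane receptor for bile acids, had 0 and 7 reads, then 0 and 1. The ratio of small intestine to colon had an interval that ended at 0.77 in the cDNA fragmented libraries.

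The receptor of Fgf15 consists of Fgfr4 and its coreceptor Klb, both best known from liver, and both were low here. Fgfr4 had 0.085 and 0.73 RPKM in small intestine and colon of the cDNA fragmented libraries and 1.56 and 4.93 in the rRNA depleted ones. Klb had 0.34 and 1.35 RPKM, then 0.14 and 4.18 from 1 and 50 reads, and was at least 3-fold higher in colon by the penalised rule in the rRNA depleted libraries, whereas 0 of these 2 genes were so in the cDNA fragmented ones. The median log2 difference was -1.95 in the cDNA fragmented protocol and -2.87 in the rRNA depleted one. Of 9 genes of bile acid synthesis and conjugation 0 were at least 3-fold different by that rule in either protocol. Of all genes, 2.62% and 3.59% were higher in small intestine and 3.07% and 6.24% in colon in the cDNA fragmented and rRNA depleted libraries. The median of the list was 0.65 in the cDNA fragmented libraries, against -0.34 for all genes. It was 1.30 for the 8 genes with a read in the rRNA depleted ones, against -0.42, and 3 of the 9 had 0 reads in colon there. With genes at 0 reads in 1 library set to their bound, or left out where there is none, the median in the rRNA depleted libraries was 1.08 for 7 genes.

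Fabp1 and Fabp2, the liver and intestinal fatty acid binding proteins and the relatives of Fabp6, were both at least 3-fold higher in small intestine. Fabp1 had 13431 and 4.75 RPKM in the cDNA fragmented libraries and 600 and 5.26 in the rRNA depleted ones. Fabp2 had 37853 and 4441 RPKM, then 3243 and 403 RPKM. Fabp6 stood at 0.031 of the level of Fabp2 in the cDNA fragmented small intestine library and at 0.0073 in colon, and at 0.096 and 0.013 in the rRNA depleted ones. Among 4 markers of distal small intestine, Cubn and Amn were at least 3-fold higher in small intestine and Pyy in colon in both protocols, and Nts was not called in either.

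**Figure D4:**
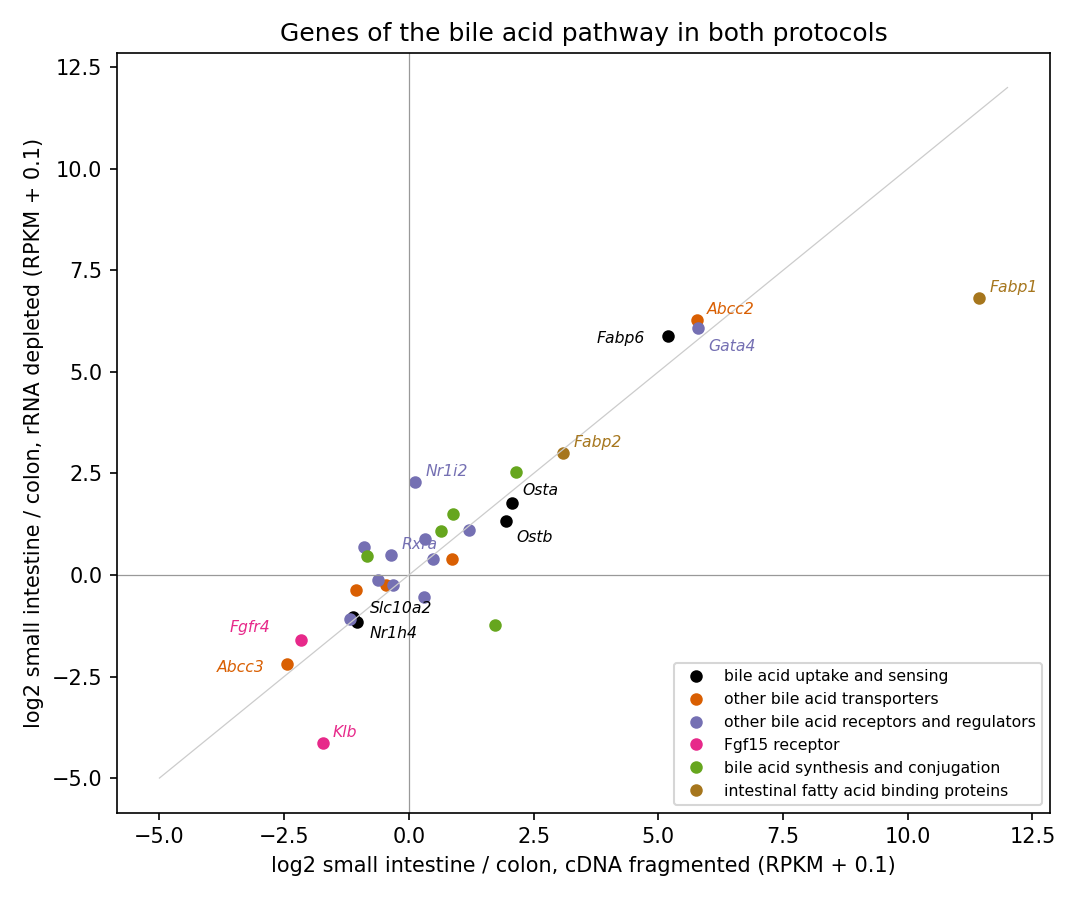
Log2 difference of small intestine and colon, on the log2(RPKM + 0.1) scale, in the cDNA fragmented protocol (horizontal) against the rRNA depleted protocol (vertical), for the 30 of 39 genes with at least 10 reads in each protocol. Colours give the lists and the grey diagonal equal differences. Fabp6 lies beside Abcc2 and Gata4, and Slc10a2 and Nr1h4 lie together below 0, while Nr0b2 and Fgf15 had too few reads to be drawn.

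The genes whose pattern was most like that of a member were searched among 14668 genes with at least 20 reads, by the Euclidean distance of centred log2(RPKM + 0.1) values over the 4 libraries. For Fabp6 these were Reg3a, an antimicrobial lectin (distance 0.17), Guca2b, the precursor of uroguanylin (0.68), and Gm7092 (0.70). Reg3a had 230 and 5.93 RPKM in the cDNA fragmented libraries and 57.5 and 1.03 in the rRNA depleted ones. For Nr1h4 they were Grtp1 (0.019), Eral1 (0.067) and D2Wsu81e (0.069), and for Slc10a2 they were Ghdc (0.078), Thap11 (0.11) and Mab21l2 (0.11). With 4 libraries, likeness is a description only.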

How the data were processed

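The authors deposited, for each of the 4 libraries, the placements of single SOLiD reads of 35 colors (position, strand and number of color mismatches), together with tables of RefSeq exon blocks and exon junctions of mm9. Per the file headers these values are no normalized unit and no table of reads per gene. The authors had matched the reads with up to 3 mismatches and had removed reads with more than 1 placement. The methods describe a matching to the whole genome with BioScope, whereas the deposited placements are on exons and junctions, and the software version behind the latter is not given in the sources used here. Numbers of reads and start points equalled those in the deposited reports in all 4 libraries. The rRNA depleted libraries are named after their labels, whereas the methods describe enrichment of polyadenylated RNA for the protocol with fragmented RNA, and the study gives other read totals for it than the deposited reports.

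Of 200217 deposited exon blocks 198484 were named by overlap with GENCODE M1, giving 20804 genes. A read counted for the block that holds its start, within 3 bases of its border, and 98.6% to 99.0% of uniquely placed reads fell on named genes. Reads across junctions were left out, since placements with balanced overhangs were largely missing, and exons shorter than a read cannot hold one, so genes with short exons are understated. Intervals of levels were exact Poisson, those of ratios exact conditional binomial and those of shares Wilson intervals (95%), and 3 reads served as the bound for a count of 0. Reads without molecular identifiers are not independent molecules, so intervals cover counting error only.

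The tissue effect over both protocols was fitted with limma 3.58.1 (R 4.3.3, trend option, pseudocount of 0.5 reads, TMM scaling written here, filter of 10 reads per library of median size in at least 2 libraries and 15 reads in all, adjusted p under 0.05). A quasi-likelihood count model had been planned but was not run, and limma took its place. The steps were tested on simulated data. Other calculations used Python 3 with numpy, scipy and pandas.

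All 7 genes were named. From the 5 pathway lists, genes at least 3-fold different in either protocol with 1 RPKM added to the divisor were named, and Rxra, Gpbar1, Abcc3, Fgfr4, Klb, Gata4, Fabp1 and Fabp2 in any case, and the 3 most similar genes were named for Fabp6, Nr1h4 and Slc10a2. The genes and lists were chosen with earlier results of these data known. Of the other marker lists, with RPKM summed over the cDNA fragmented small intestine and colon and the rRNA depleted small intestine and colon libraries, epithelium (4 genes) had 1279, 1346, 1937 and 3359, hepatocyte (4 genes) 6.30, 69.3, 2.56 and 17.4, immune cells (4 genes) 128, 114, 37.0 and 53.7, adipocyte (3 genes) 8.09, 38.0, 4.25 and 13.9, and proximal small intestine (5 genes) 13545, 27.4, 1182 and 121. In the proximal list Fabp1 made up 13431 of the first sum. Lct, Gata4 and Fabp1 were at least 3-fold higher in small intestine in both protocols, and Cybrd1 was not called in either. Slc40a1 was higher in colon, with 4.30 RPKM in small intestine against 22.3 in the cDNA fragmented libraries and 49.7 against 110 in the rRNA depleted ones. Alternatives were TMM and median-of-ratios scaling, at most 1 mismatch, start points, the last 500 exonic bases, bases of no other gene, the annotated strand, junction reads, a penalty of 0.1 RPKM and no filter. Scaling to the 4 epithelial markers, voom weights and other pseudocounts were added after seeing the data.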

Additional observations from a re-analysis of the deposited data

Results flagged for a closer look

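Rxra, the partner of Nr1h4, changed direction between the protocols. Its small intestinal level divided by the colonic one gave 0.78 (0.72 to 0.85) in the cDNA fragmented libraries and 1.40 (1.26 to 1.55) in the rRNA depleted ones, and the difference between the protocols was not tested. The 4 pancreatic acinar markers also turned, with a ratio of summed RPKM of 0.026 in the cDNA fragmented libraries, where colon was at least 3-fold higher for 4 of 4, and of 6.56 in the rRNA depleted ones, where small intestine was so for 3 of 4. In the latter Cela1 made up most of the colon sum and had a ratio of 1.70, against 491, 632 and 545 for Cpa1, Pnlip and Ctrb1. The difference of these markers between the protocols was not tested either.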

How the results depend on the processing

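Of 93 ratios of the members recomputed under the alternatives, 57 stayed within the counting interval, 35 left it in the same direction and 1 turned. Part of the 57 could not move. The bases of no other gene held the same reads for each gene compared, as did the annotated strand in the rRNA depleted libraries. The last 500 exonic bases did so for Fabp6 and Ostb, which are shorter. The ratio that turned was that of Slc10a2 in the cDNA fragmented libraries on the last 500 exonic bases, where small intestine divided by colon gave 1.18, and the cause was not tested. With start points in place of reads only 1 gene, Fgf15, was at least 3-fold higher in small intestine in the cDNA fragmented libraries. A base holds at most 1 start point per strand. Osta (1544 bases) and Ostb (397 bases) already had 1595 and 464 start points in colon, so they could not reach 3-fold this way. Fabp6 had 528 in small intestine and 212 in colon on 387 bases. As a read has to fit on its block, fewer start points were open to it than 1 per base and strand. How many were open was not worked out, so whether Fabp6 could reach 3-fold this way is not known, and the cause of its lower ratio was not tested. The other 69 of 70 counts stayed within 1.5 times, which a change from 2 to 3 members also does. They include the counts of members higher in colon, which were 0 in every run. Scaling moved the log2 ratio of small intestine to colon of every gene by 0.22 (TMM), 0.32 (median of ratios) or 0.34 (epithelial markers) in the cDNA fragmented protocol and by 0.32, 0.34 or 0.49 in the rRNA depleted one. Slc10a2 and Nr1h4 stayed higher in colon under all 3 scalings, at least 1.47-fold for Slc10a2 in the rRNA depleted libraries and at least 1.54-fold for Nr1h4 in either protocol under any alternative run. With at most 1 mismatch Nr0b2 had a ratio of 8.77 (1.18 to 389) in the cDNA fragmented libraries. In limma, adjusted p ran up to 0.00053 for Fabp6 and 0.015 for Osta, and from 0.19 to 0.46 for Slc10a2 and from 0.19 to 0.57 for Nr1h4. Ostb missed the threshold with start points only (log2 difference 1.16, adjusted p = 0.057 in limma). Without the filter 4 genes passed in limma, among them Fgf15. No paired analysis was possible because the labels carry no replicate numbers or animals, so the fit compares the tissues within each protocol only, and no library could be left out, as each group holds 1 library. The planned Wald test of a count model was not run. Depth limits Nr0b2 in every library, and the precision of low genes in the rRNA depleted ones.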
